A study of Mus musculus with 9 samples.

Results

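The transcripts of 9 chemokine ligands were followed in hematopoietic stem cells (HSCs) sorted from mouse bone marrow: *Ccl3*, *Ccl4*, *Ccl5*, *Ccl6*, *Ccl9*, *Cxcl2*, *Cxcl5*, *Cxcl10* and *Cxcl16*. They are 9 of the 56748 genes in the count table and were picked by gene symbol, with their levels in these libraries already known, so the levels and differences below describe them and are not independent evidence. RNA-seq of 9 libraries, 3 in each of 3 groups, compared young HSCs (yHSCs) with fractions of pre-aged HSCs (paHSCs) that carry little or much P-selectin on their surface. Donors of yHSCs were 6 to 10 weeks old, whereas both paHSC fractions were sorted from donors aged 14 to 16 months. Every mouse was a female on the C57BL/6 background, and the number of animals behind a library is not stated. HSCs were gated as lineage-negative, Sca-1+ and c-Kit+ cells that lacked CD48 and carried CD150. The study describes the libraries as biological replicates, without naming the animals.

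Chemokines are small secreted proteins that attract cells carrying matching G protein-coupled receptors. The CC and CXC families are named for the spacing of conserved cysteines near the amino terminus, and most inflammatory members are induced quickly when a cell senses cytokines or microbial products. In bone marrow they hold stem cells in place, call granulocytes out to tissues and recruit lymphocytes, and Ccl3 and Pf4 are known to restrain cycling of primitive progenitors. Among the 9 ligands, Ccl3, Ccl4 and Ccl5 attract monocytes and T cells, Ccl6 and Ccl9 act through Ccr1, Cxcl2 and Cxcl5 attract neutrophils through Cxcr2, Cxcl10 is the interferon-induced ligand of Cxcr3, and Cxcl16 is a membrane-bound ligand of Cxcr6.

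Between 24866975 and 35375310 reads per library were counted on genes, and 3 counts corresponded to 0.0695 to 0.198 CPM (counts scaled to the TMM effective library size), a limit that covers counting error only. No pair of replicates agreed within sampling noise. *Selp*, the gene of the sorted protein, stood at 20.5 to 30.0 CPM in yHSCs, 29.3 to 109 in Selp-low paHSCs and 264 to 652 in Selp-high paHSCs. The paHSC fractions were in the order their labels give, and the ranges of yHSCs and Selp-low paHSCs overlapped. All 12 HSC markers examined, among them *Kit*, *Slamf1* and *Procr*, had counts in every library, with sums of 1354 to 2887 CPM in yHSCs, 1081 to 1745 in Selp-low and 2678 to 3650 in Selp-high paHSCs, and their part in the differences below was not tested. Genes with a count numbered 21094 in yHSC replicate 2, and 21755 and 25192 in Selp-high replicates 1 and 3. The other libraries held 31236 to 34143. The part of this split in the levels below was not tested. Several Selp-low libraries stood apart in other ways. In Selp-low replicate 2 the 10 most abundant genes took 44.8% of counts and the TMM factor was 0.545. There 6 plasma cell markers summed to 99023 CPM, of which *Jchain* alone made 98263, against 34.3 to 3245 in the other libraries. In Selp-low replicate 3, 12 neutrophil markers summed to 234190 CPM, against 806 to 75842 elsewhere. In Selp-low replicates 1 and 2, 9 B cell markers reached 5601 and 7916 CPM, against 55.0 to 520 elsewhere. In all 3 Selp-low libraries 12 T and NK cell markers summed to 577 to 1309 CPM, against 79.0 to 129 elsewhere. In bulk samples such as these, fewer cells of a type and less RNA per cell cannot be told apart.

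*Ccl4*, *Ccl3* and *Cxcl2* were the most abundant of the 9 transcripts in yHSCs, and the order of mean levels was not the same in each group. On the scale of FPKM (CPM divided by gene length in kilobases), *Ccl4* led in yHSCs at 559 ± 196 (SD, n = 3), ahead of *Ccl3* at 95.8 ± 19.6 and *Cxcl2* at 90.8 ± 58.7. The ranges of *Ccl3* and *Cxcl2* overlapped there, and *Ccl4* lay above both in every library. In Selp-low paHSCs *Ccl4* still had the highest mean, 91.2 ± 84.7 FPKM, but its range overlapped that of *Cxcl2* (27.7 ± 26.9), and the same held for each following neighbour down to *Ccl3* in sixth place (11.7 ± 10.8). In Selp-high paHSCs *Ccl6* came to the top at 43.3 ± 11.8 FPKM, beside *Ccl4* at 40.6 ± 12.6 and *Cxcl2* at 34.5 ± 37.0, and no neighbours in the order were separated by more than their ranges. *Cxcl16* was the lowest or the next to lowest in each group, with group means of 0.783 to 1.53 FPKM.

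**Figure D1:**
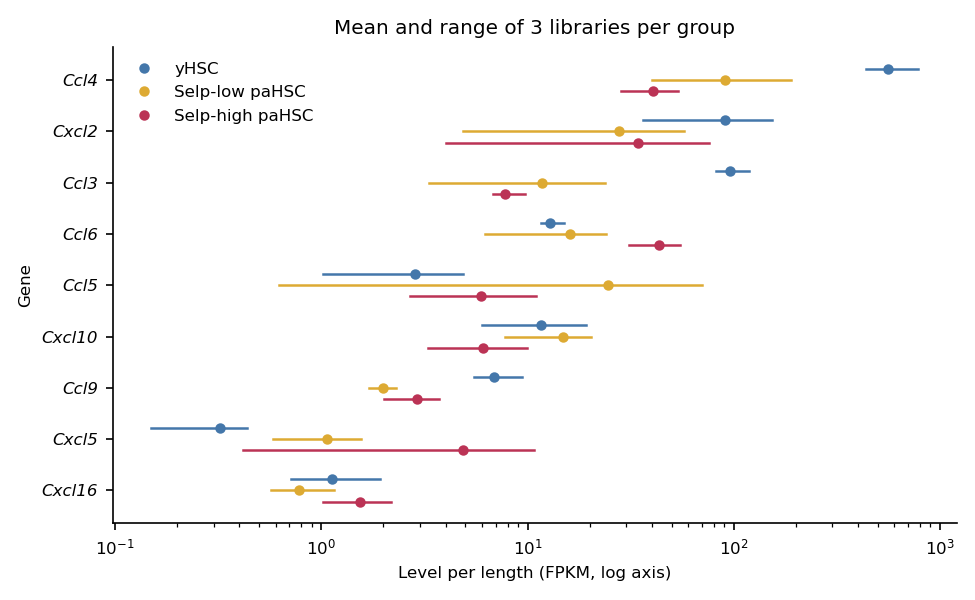
Level per gene length of the 9 chemokine genes (FPKM, log axis), with a dot for the mean and a line from the lowest to the highest of 3 libraries in each group. *Ccl4* in yHSCs stands apart from all other ranges, and *Ccl6* has the highest mean in Selp-high paHSCs.

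All 9 genes passed the filter on low counts in all 3 comparisons. A gene was called when edgeR's quasi-likelihood test, adjusted over the whole table by Benjamini-Hochberg, gave an adjusted p no higher than 0.05 with a log2 fold change of 1 or more in either direction. From yHSCs to Selp-high paHSCs, 2 of the 9 ligands were called, *Ccl3* and *Ccl4*, both lower, beside 0.165% of the 20017 genes tested. DESeq2, the tool of the study, called 5 of the 9, 3 lower with *Ccl9* added (1.11% of its genes) and 2 higher, *Ccl6* and *Cxcl5* (1.88%), beside 2.99% in both directions. Limma voom with quality weights called 3 (1.37% of genes), *Ccl3* and *Ccl4* as lower (0.505%) and *Ccl6* as higher (0.869%). In edgeR 5 had an unadjusted p under 0.05, beside 7.59% of genes. From yHSCs to Selp-low paHSCs edgeR called 0 of the 9 and 0% of genes. At an unadjusted p under 0.05 it held 3 ligands beside 11.3% of genes, DESeq2 called *Ccl3*, *Ccl4* and *Ccl9* as lower (0.936% of genes, 2.89% in both directions), and voom called *Ccl3* and *Ccl9* as lower (0.519%, 2.11% in both directions). Within paHSCs, comparing Selp-high with Selp-low, edgeR, DESeq2 and voom each called 0 of the 9, beside 0%, 2.21% and 0% of genes, and 2 ligands, *Ccl6* and *Cxcl10*, had an unadjusted p under 0.05 beside 12.5% of genes. The median log2 fold change of the 9 genes was -0.97 for Selp-high paHSCs over yHSCs, where that of all tested genes was -0.03. It was -0.46 (all genes 0.08) for Selp-low paHSCs over yHSCs and 0.31 (all genes -0.11) for Selp-high over Selp-low paHSCs. The comparisons with yHSCs share the same 3 young libraries.

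**Figure D2:**
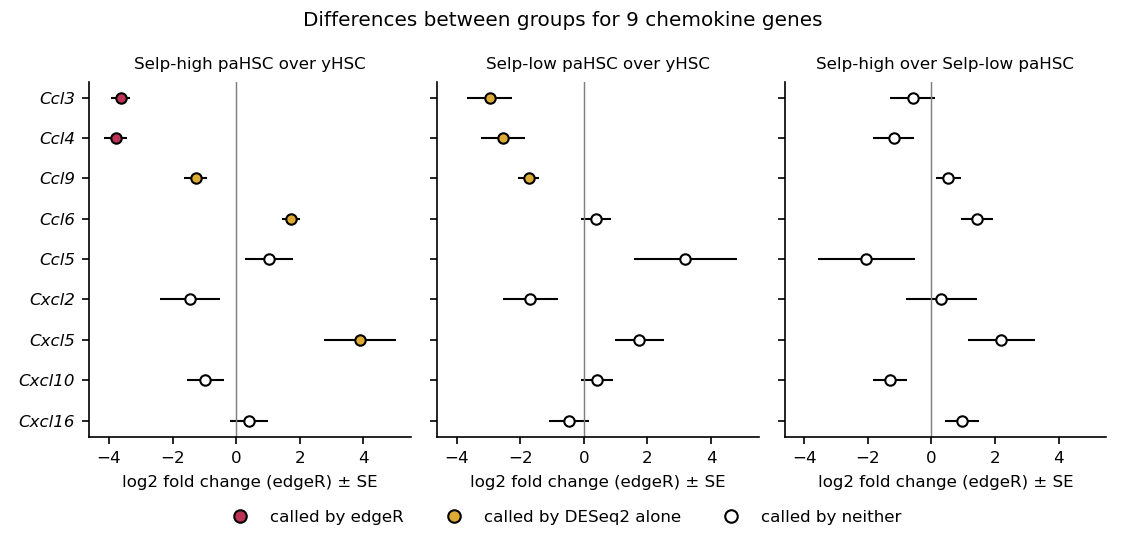
Log2 fold change of each chemokine gene with its SE (horizontal bar) in the 3 comparisons, from edgeR, with 3 libraries per group. Filled dots mark calls by edgeR (*Ccl3* and *Ccl4* in Selp-high paHSCs over yHSCs) or by DESeq2 alone, and open dots mark genes that neither called.

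*Ccl3* and *Ccl4*, which encode closely related inflammatory chemokines, were far lower in paHSCs than in yHSCs. They are neighbours on chromosome 11, *Ccl3* (ENSMUSG00000000982) at 83538670 to 83540181 on the minus strand and *Ccl4* (ENSMUSG00000018930) at 83553410 to 83555509 on the plus strand, with 13228 bases and 0 listed genes between them (coordinates of the authors' table, whose processing notes name mm39). *Ccl3* stood at 63.1, 66.4 and 90.7 CPM in yHSC replicates 1 to 3, at 18.3, 6.06 and 2.55 CPM in the Selp-low libraries and at 5.19, 7.41 and 5.36 CPM in the Selp-high libraries. No paHSC library reached the lowest yHSC library, and Selp-low replicate 1 was the highest of the paHSC libraries. *Ccl4* stood at 290.0, 298 and 518 CPM in yHSCs, at 125, 29.4 and 26.5 CPM in Selp-low paHSCs and at 35.3, 26.4 and 18.7 CPM in Selp-high paHSCs. It showed the same separation, again with Selp-low replicate 1 between the young and the other pre-aged libraries.

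In Selp-high paHSCs over yHSCs, *Ccl3* fell by 3.63 on the log2 scale (SE 0.30, edgeR adjusted p = 0.0159), a 12.3-fold difference of means, and lay lower in 3 of 3 libraries. *Ccl4* fell by 3.79 (SE 0.37, edgeR adjusted p = 0.0199), a 13.8-fold difference. Both calls were lost without any 1 of yHSC replicates 2 and 3 and Selp-high replicates 2 and 3 (edgeR adjusted p of 0.0697 to 0.132), with log2 fold changes still between -3.83 and -3.50 for *Ccl3* and between -3.90 and -3.52 for *Ccl4*. In a single fit of all 9 libraries their edgeR adjusted p was 0.113 and 0.0997. Over all alternatives, DESeq2 and voom included, the adjusted p ran from 4.66e-32 to 0.132 for *Ccl3* and from 4.54e-23 to 0.166 for *Ccl4*. In Selp-low paHSCs over yHSCs, *Ccl3* had a log2 fold change of -2.96 (SE 0.71) and *Ccl4* of -2.55 (SE 0.68), each with an edgeR adjusted p of 0.332. Without Selp-low replicate 1 these became -4.05 and -3.68. Between the pre-aged fractions the ranges of both genes overlapped (edgeR adjusted p = 0.759 for *Ccl3* and 0.504 for *Ccl4*), and the sign for *Ccl3* turned from -0.60 to 0.47 without Selp-low replicate 1.

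**Figure D3:**
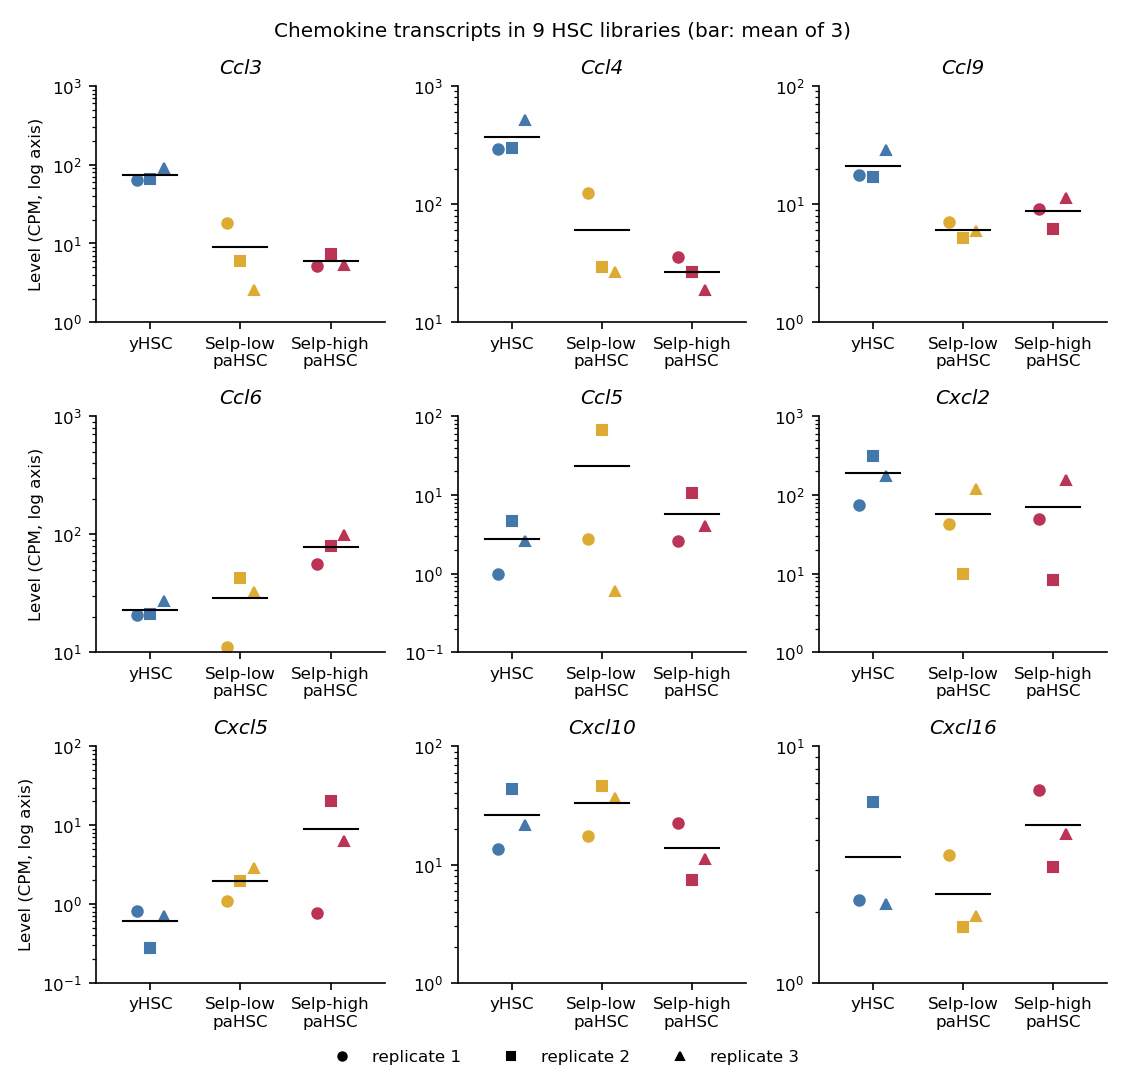
Level of each chemokine gene in 9 libraries (CPM, log axes that differ between panels), with a symbol for each replicate and a bar for the mean of 3. *Ccl3*, *Ccl4* and *Ccl9* lie lower in every paHSC library than in every yHSC library, *Ccl6* is highest in the 3 Selp-high libraries, and *Ccl5*, *Cxcl2* and *Cxcl5* vary widely among replicates.

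*Ccl9* and *Ccl6*, which encode Ccr1 ligands of one rodent branch of the CC family, lie next to each other on the minus strand of chromosome 11, and the order of their groups was not the same. *Ccl9* (ENSMUSG00000019122) spans 83463745 to 83469462 and *Ccl6* (ENSMUSG00000018927) spans 83478708 to 83483913, 9245 bases apart with 0 listed genes between. *Ccl9* stood at 17.5, 16.8 and 28.5 CPM in yHSCs, at 7.01, 5.20 and 5.92 CPM in Selp-low paHSCs and at 9.02, 6.11 and 11.3 CPM in Selp-high paHSCs. All 6 paHSC libraries were below all 3 yHSC libraries. *Ccl6* stood at 20.8, 21.2 and 27.1 CPM in yHSCs, at 11.2, 42.9 and 32.5 CPM in Selp-low paHSCs and at 55.9, 79.2 and 98.3 CPM in Selp-high paHSCs. The 3 Selp-high libraries lay above the other 6, while Selp-low libraries fell on either side of yHSCs.

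The edgeR log2 fold change of *Ccl9* was -1.74 (SE 0.33, adjusted p = 0.332) for Selp-low paHSCs over yHSCs and -1.27 (SE 0.36, adjusted p = 0.351) for Selp-high paHSCs over yHSCs. That of *Ccl6* was 1.73 (SE 0.28, edgeR adjusted p = 0.0993) for Selp-high paHSCs over yHSCs, a 3.38-fold difference of means, and the adjusted p lay between 1.81e-08 and 0.573 over its alternatives. For Selp-high over Selp-low paHSCs it was 1.43 (SE 0.50, edgeR adjusted p = 0.350), a 2.70-fold difference. The labels do not say whether paHSC libraries with equal numbers share animals, and their residual correlations of 0.178 to 0.303 do not establish it. With the replicate number as a block the adjusted p of *Ccl6* was 0.115 by edgeR, which called 0.0442% of genes. By DESeq2 with the block it was 6.86e-04, and *Ccl6* was called as higher beside 4.19% of genes (9.17% in both directions). Over the alternatives for this comparison the adjusted p ranged from 6.86e-04 to 0.882. For Selp-low paHSCs over yHSCs *Ccl6* had a log2 fold change of 0.37 (edgeR adjusted p = 0.897). *Ccl6* was thus the 1 ligand of the 9 whose libraries did not overlap between the pre-aged fractions, an order that 10.3% of all genes tested showed in that direction, and 0 ligands were lower without overlap (10.6%). Against yHSCs, 3 ligands did not overlap and were lower in Selp-high paHSCs (5.28% of genes), and 1 was higher (8.52%). In Selp-low paHSCs 3 were lower (6.74%) and 1, *Cxcl5*, was higher (9.59%).

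The level of *Ccl6* moved with markers of megakaryocytes and platelets. These 12 markers summed to 283 to 360 CPM in yHSCs, 373 to 1039 in Selp-low paHSCs and 2015 to 6113 in Selp-high paHSCs, with 1 marker at 0 in each yHSC library and none at 0 in the others. Over the 9 libraries, which share their groups and scaling, *Ccl6* and the log2 sum had a Pearson r of 0.88. With the same sum *Ccl4* had an r of -0.81 and *Ccl3* an r of -0.71. The part of these markers in the levels was not tested.

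The promoters of *Ccl3*, *Ccl9* and *Ccl6*, which lie in the same cluster on chromosome 11 and differ in their order of groups, are shown as the 250 bases before the transcription start in RefSeq's GRCm38.p6 annotation, 5′ to 3′ on the gene's strand. Of the 9 ligands, 5 had an entry in that table, and *Ccl4*, *Ccl5*, *Cxcl5* and *Cxcl16* had none. Capitals mark matches to any of 5 motifs: NF-kB, AP-1 (TGANTCA), the interferon-stimulated response element and C/EBP (TTNNGNAA), each searched on both strands, and TATAAA on the gene's strand. Matches may overlap.
Ccl3 promoter, chr11:83649379-83649628, minus strand: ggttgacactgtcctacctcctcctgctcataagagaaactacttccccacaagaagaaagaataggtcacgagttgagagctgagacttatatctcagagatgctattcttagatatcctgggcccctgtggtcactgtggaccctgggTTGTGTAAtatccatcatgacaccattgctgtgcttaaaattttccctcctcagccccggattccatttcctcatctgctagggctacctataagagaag
Ccl9 promoter, chr11:83578637-83578886, minus strand: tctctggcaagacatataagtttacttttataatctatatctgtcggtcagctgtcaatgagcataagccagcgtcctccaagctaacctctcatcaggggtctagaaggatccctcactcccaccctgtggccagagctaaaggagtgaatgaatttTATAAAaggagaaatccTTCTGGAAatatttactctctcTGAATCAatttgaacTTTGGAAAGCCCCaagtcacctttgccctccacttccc
Ccl6 promoter, chr11:83593088-83593337, minus strand: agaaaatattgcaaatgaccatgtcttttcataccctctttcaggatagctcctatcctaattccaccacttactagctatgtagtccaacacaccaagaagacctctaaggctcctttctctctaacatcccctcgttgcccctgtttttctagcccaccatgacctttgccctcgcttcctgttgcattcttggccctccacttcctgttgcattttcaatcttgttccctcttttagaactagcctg
Of all 32851 promoters cut to the same length, 3.9% held the NF-kB motif, 6.75% the AP-1 motif, 2.98% the interferon-stimulated response element, 36.8% the C/EBP motif and 7.59% TATAAA. The *Ccl9* window held an NF-kB match that overlaps a C/EBP match, an AP-1 match, another C/EBP match and TATAAA. The *Ccl3* window held a C/EBP match alone, and the *Ccl6* window held no match to these letters.

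*Ccl5*, which encodes a ligand of Ccr1 and Ccr3 made abundantly by T and NK cells, was low in 8 of the 9 libraries. Its counts map to chromosome 11 at 83416604 to 83421344 on the minus strand (ENSMUSG00000035042). It stood at 0.982, 4.66 and 2.597 CPM in yHSCs, at 2.75, 67.4 and 0.599 CPM in Selp-low paHSCs and at 2.58, 10.5 and 4.01 CPM in Selp-high paHSCs. Selp-low replicate 2 held the highest value and Selp-low replicate 3 the lowest of all libraries. The former also held the highest summed level of plasma cell markers, given above, and of 9 B cell markers (7916 CPM). Its 12 T and NK cell markers summed to 1309 CPM, against 577 and 635 in Selp-low replicates 1 and 3. In the yHSC and Selp-high libraries they summed to 79.0 to 129 CPM. Over 9 libraries *Ccl5* had an r of 0.92 with the log2 sum of plasma cell markers, which was mostly *Jchain* in Selp-low replicate 2. Its r with the log2 sum of B cell markers was 0.74. With T and NK cell markers r was 0.32, and with neutrophil markers it was -0.88. Whether any of these cells supplied the reads of *Ccl5* was not tested. The edgeR log2 fold change for Selp-low paHSCs over yHSCs was 3.20 (SE 1.61, adjusted p = 0.525), and without Selp-low replicate 2 it turned to -0.71. For Selp-high over Selp-low paHSCs it was -2.05 (SE 1.53, edgeR adjusted p = 0.617), and without that library it turned to 1.75. DESeq2 gave no adjusted p for *Ccl5* in either of these comparisons.

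*Cxcl2* and *Cxcl5*, which encode neutrophil attractants and lie 142246 bases apart on the plus strand of chromosome 5 with 9 listed genes between them, each varied widely among replicates. *Cxcl2* (ENSMUSG00000058427, 91051730 to 91053797) stood at 74.8, 316 and 173 CPM in yHSCs, at 42.9, 10.01 and 119 CPM in Selp-low paHSCs and at 49.1, 8.28 and 156 CPM in the Selp-high fraction. Replicate 2 was the highest yHSC library and the lowest of each paHSC fraction. Its edgeR log2 fold change was -1.45 (SE 0.95, adjusted p = 0.880) for Selp-high paHSCs over yHSCs and -1.68 (SE 0.87, adjusted p = 0.534) for Selp-low paHSCs over yHSCs. The former became -2.71 without Selp-high replicate 3 and -0.79 without yHSC replicate 2, and the latter became -2.83 when Selp-low replicate 3 was left out and -1.10 when yHSC replicate 2 was. Between the fractions it was 0.31 (SE 1.11, edgeR adjusted p = 0.930) and lay between -1.0004 and 1.42 as single libraries were left out. Summed neutrophil markers were 75842, 15028 and 21870 CPM in yHSCs, 6146, 806 and 234190 CPM in Selp-low paHSCs and 8065, 2464 and 48925 CPM in Selp-high paHSCs, with none of the 12 markers at 0. Their log2 sum and *Cxcl2* had an r of 0.74 over 9 libraries, lowest together in Selp-low replicate 2 and Selp-high replicate 2. Among yHSCs the order was the reverse, with the highest sum and the lowest *Cxcl2* in replicate 1. With the log2 sum of plasma cell markers *Cxcl2* had an r of -0.80, and the part of these markers in the *Cxcl2* level was not tested.

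*Cxcl5* (ENSMUSG00000029371, 90907219 to 90909483) stood at 0.812, 0.278 and 0.711 CPM in yHSCs, from 12 to 26 counts per library. It stood at 1.08, 1.98 and 2.88 CPM in Selp-low paHSCs and at 0.775, 20.1 and 6.30 CPM in Selp-high paHSCs. All Selp-low libraries were above the yHSC libraries, whereas Selp-high replicate 1 lay within the yHSC range and the other two were the highest of all 9. The edgeR log2 fold change for Selp-high paHSCs over yHSCs was 3.90 (SE 1.14, adjusted p = 0.380), a 15.1-fold difference of means that lay between 2.501 and 4.44 on the log2 scale when a single library was left out. DESeq2 called it at an adjusted p of 0.00497, with a range of 1.38e-06 to 1.00 over all alternatives for this comparison. For Selp-low paHSCs over yHSCs it was 1.74 (SE 0.77, edgeR adjusted p = 0.462) and for Selp-high over Selp-low paHSCs 2.19 (SE 1.05, edgeR adjusted p = 0.451). As with *Ccl6*, the level moved with the 12 megakaryocyte and platelet markers (r = 0.83 over 9 libraries), which were highest in Selp-high replicate 2 at 6113 CPM. In Selp-high replicate 1 the markers summed to 2015 CPM, above every Selp-low library, while *Cxcl5* was at 0.775 CPM. With the early response and NF-kB target genes described below, r was -0.87. The part of these lists was not tested.

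**Figure D4:**
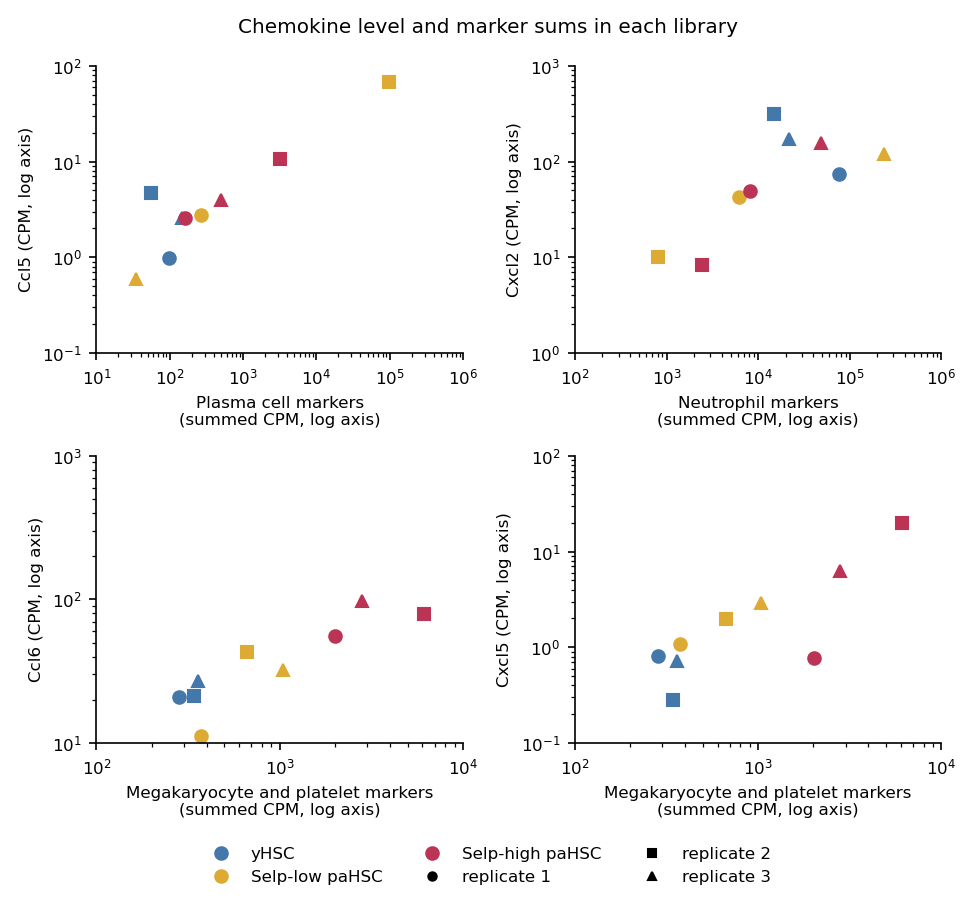
Level of 4 chemokine genes against the summed level of a marker list in the same library (CPM, log axes), with a colour for each group and a symbol for each replicate. The highest *Ccl5* value sits in the library with the highest plasma cell sum, and the highest *Cxcl5* value in the library with the highest megakaryocyte and platelet sum.

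*Cxcl10* and *Cxcl16*, ligands of the lymphocyte receptors Cxcr3 and Cxcr6, overlapped between all groups. *Cxcl10* (ENSMUSG00000034855, chromosome 5, 92494497 to 92496748, minus strand) stood at 13.5, 43.2 and 21.4 CPM in yHSCs, at 17.6, 45.8 and 36.8 CPM in Selp-low paHSCs and at 22.4, 7.41 and 11.2 CPM in the Selp-high fraction. That fraction held the 2 lowest values, but Selp-high replicate 1 lay above Selp-low replicate 1. Its edgeR log2 fold change was -1.30 (SE 0.53, adjusted p = 0.389) for Selp-high over Selp-low paHSCs, -0.97 (SE 0.57, adjusted p = 0.844) for Selp-high paHSCs over yHSCs and 0.42 (SE 0.51, adjusted p = 0.889) for Selp-low paHSCs over yHSCs. *Cxcl16* (ENSMUSG00000018920, chromosome 11, 70344809 to 70350810, minus strand) stood at 2.23, 5.79 and 2.16 CPM in yHSCs, at 3.47, 1.71 and 1.91 CPM in Selp-low paHSCs and at 6.56, 3.08 and 4.24 CPM in Selp-high paHSCs. The replicate number was used as a block although the labels do not say that equal numbers share animals. With it the log2 fold change of *Cxcl16* for Selp-high over Selp-low paHSCs was 0.96 (edgeR adjusted p = 0.332, and 0.212 to 0.951 over the alternatives). Without the block the log2 fold changes of the 3 comparisons lay between -0.46 and 0.95 with edgeR adjusted p of 0.511 to 0.998.

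The windows of *Cxcl2* and *Cxcl10* are shown because each held NF-kB matches and their libraries were ordered differently, with the same marks and searches as above.
Cxcl2 promoter, chr5:90903649-90903898, plus strand: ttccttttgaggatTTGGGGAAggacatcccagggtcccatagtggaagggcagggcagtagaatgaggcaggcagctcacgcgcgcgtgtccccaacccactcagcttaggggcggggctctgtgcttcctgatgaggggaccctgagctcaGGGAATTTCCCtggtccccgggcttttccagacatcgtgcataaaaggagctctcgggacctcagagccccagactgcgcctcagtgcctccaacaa
Cxcl10 promoter, chr5:92348890-92349139, minus strand: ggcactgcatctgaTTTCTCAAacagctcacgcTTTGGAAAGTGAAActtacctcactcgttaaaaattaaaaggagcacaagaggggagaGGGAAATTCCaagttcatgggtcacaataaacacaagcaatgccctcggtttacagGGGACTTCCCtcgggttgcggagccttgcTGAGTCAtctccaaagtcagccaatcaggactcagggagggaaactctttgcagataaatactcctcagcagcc
In *Cxcl2* an NF-kB match read on both strands lies 87 to 97 bases before the start, and a C/EBP match lies farther out. In *Cxcl10* NF-kB matches lie 94 to 103 and 150 to 159 bases before the start, an AP-1 match 68 to 74 bases before it, and the window's interferon-stimulated response element (204 to 213 bases before it) overlaps a C/EBP match. Each match is a description of letters in this window.

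The reads of 4 ligands could be shared with an overlapping gene on the other strand, since the strand setting of the counting is not given in the sources used here. These were an antisense lncRNA at *Ccl3* (10 to 1452 counts per library), E230016K23Rik at *Ccl6* (0 to 104), *Art3* around *Cxcl10* (30 to 165) and *Zmynd15* at *Cxcl16* (0 to 93).

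Among the ligands themselves, *Ccl3* and *Ccl4* varied together most closely (Pearson r = 0.97 and Spearman rho = 0.78 of log2 CPM over 9 libraries), followed by *Ccl3* and *Ccl9* (r = 0.84) and *Ccl4* and *Ccl9* (r = 0.81). *Ccl4* ran opposite to *Cxcl5* (r = -0.74) and to *Ccl6* (r = -0.73). These correlations rest on 9 points that share 3 groups, so a difference between groups alone can produce them. *Ccl5* ran opposite to *Cxcl2* (r = -0.63) and *Cxcl10* opposite to *Cxcl5* (r = -0.61), and their highest positive r with any other of the 9 was 0.33 and 0.26.

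Of 13113 protein-coding genes with a mean of at least 1 CPM, those with the pattern most like *Ccl3* were *P2ry14* (r = 0.98), *Sox4* and *Flt3* (both 0.97). *Flt3*, which encodes a cytokine receptor of lymphoid-primed progenitors, stood at 207, 330 and 563 CPM in yHSCs, at 42.4, 5.40 and 7.68 CPM in Selp-low paHSCs and at 4.29, 7.78 and 6.73 CPM in Selp-high paHSCs. Like *Ccl3* and *Ccl4* it was lower in all 6 paHSC libraries, with Selp-low replicate 1 the highest of them. *Ccl4* was most like *Flt3* (r = 0.98), *Ccl3* (0.97) and *P2ry14* (0.96). By Spearman rho these stood at 0.717, 0.783 and 0.767, only at ranks 395, 219 and 264 of the 13113 genes. *Ccl9* was most like 1700025G04Rik (0.94), *Macroh2a1* and *Ak4* (both 0.93).

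*Ccl6* was most like Gm14295 (r = 0.96), *Itga2b* (0.94) and *Ppif* (0.93). *Itga2b*, which encodes the platelet integrin CD41, stood at 49.4, 103 and 96.9 CPM in yHSCs, at 47.6, 253 and 410 CPM in Selp-low paHSCs and at 441, 1815 and 1226 CPM in Selp-high paHSCs. *Cxcl2* was most like *Ccrl2* and *Fosl1* (both 0.97) and *Nfkbiz* (0.96), the last an NF-kB co-regulator that stood at 111, 375 and 327 CPM in yHSCs, at 153, 44.2 and 202 CPM in Selp-low paHSCs and at 102, 19.7 and 233 CPM in Selp-high paHSCs. Its libraries followed the order of *Cxcl2* within each group. For the remaining ligands the leading genes were *Txndc5* (0.94), *Cox6a2* and *Ccdc134* (both 0.93) for *Ccl5*, *Ptpn11* and *Dusp3* (both 0.97) and *Dlg2* (0.96) for *Cxcl5*, *Ifngr1* (0.89), *Tmed5* and *Sumo2* (both 0.88) for *Cxcl10*, and *Gbp6* (0.98), *Gbp11* and *Htra3* (both 0.92) for *Cxcl16*. *Txndc5* was highest in Selp-low replicate 2 at 1578 CPM, as *Ccl5* was.

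**Figure D5:**
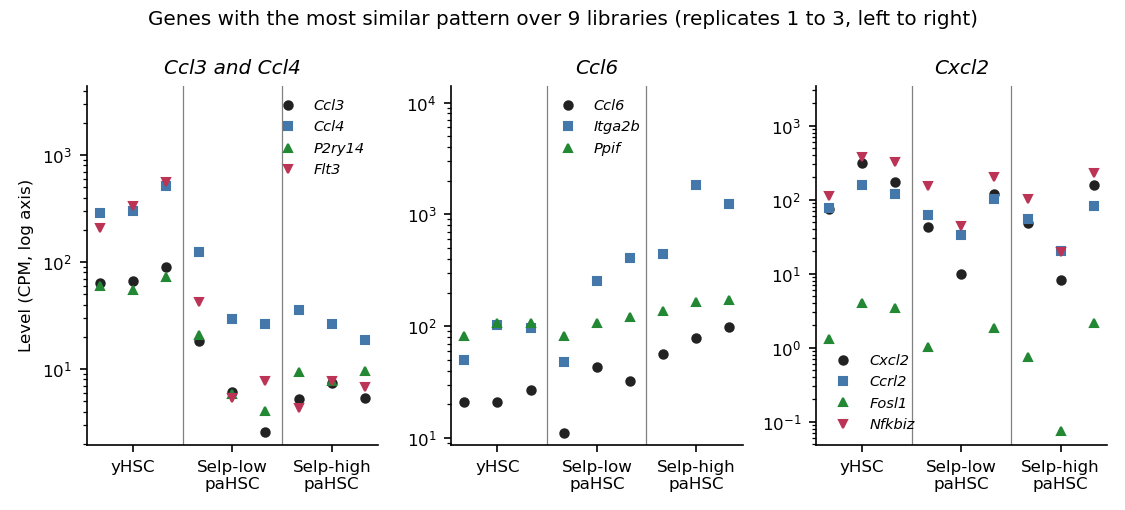
Levels of *Ccl3*, *Ccl4*, *Ccl6* and *Cxcl2* beside genes whose pattern over the 9 libraries was most like theirs (CPM, log axes; replicates 1 to 3 of each group from left to right). *Flt3* and *P2ry14* lie lower in paHSC than in yHSC libraries, as *Ccl3* and *Ccl4* do, and the value of *Fosl1* in Selp-low replicate 2, which is 0, is not drawn.

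Transcripts of receptors that these ligands bind were read in the same libraries. Of 8 receptors (*Ccr1*, *Ccr3*, *Cxcr1*, *Cxcr2*, *Cxcr3*, *Cxcr6*, and the scavenging receptors *Ackr1* and *Ackr2*), all 8 passed the filter, and edgeR called 0 in each comparison, with 2 at an unadjusted p under 0.05 in each. For these receptors and the lists below, the shares of all genes to read such counts against are 12.5% at an unadjusted p under 0.05 and 2.21% by DESeq2 for Selp-high over Selp-low paHSCs, 7.59% and 2.99% for Selp-high paHSCs over yHSCs, and 11.3% and 2.89% for Selp-low paHSCs over yHSCs. DESeq2 called *Cxcr1* and *Cxcr6* as higher in Selp-high paHSCs over yHSCs, *Cxcr3* and *Cxcr6* as higher in Selp-low paHSCs over yHSCs, and the latter 2 as lower in Selp-high over Selp-low paHSCs. Voom called 0 in each. *Cxcr6*, the receptor of Cxcl16, stood at 0, 0.139 and 0.547 CPM in yHSCs, at 75.3, 177 and 0.337 CPM in Selp-low paHSCs and at 1.40, 5.67 and 3.55 CPM in Selp-high paHSCs. *Cxcr3*, the receptor of Cxcl10, stood at 33.5, 78.3 and 0.2997 CPM in Selp-low paHSCs and at 0.169 to 4.24 CPM in the other 6 libraries. Both were high in Selp-low replicates 1 and 2, where the B cell sums were high too, and near 0 in Selp-low replicate 3. The T and NK cell sums were 577, 1309 and 635 CPM in the Selp-low libraries, against 79.0 to 129 elsewhere.

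*Ccr1* stood at 15.8, 20.8 and 27.5 CPM in yHSCs, at 4.52, 3.95 and 40.9 CPM in Selp-low paHSCs and at 13.7, 2.36 and 53.7 CPM in Selp-high paHSCs. *Cxcr2*, the receptor of Cxcl2 and Cxcl5, stood at 13.4, 19.9 and 28.9 CPM in yHSCs, at 2.65, 1.45 and 47.8 CPM in Selp-low paHSCs and at 15.0, 1.95 and 71.5 CPM in Selp-high paHSCs. Within the paHSC fractions both were highest in the replicate with the most neutrophil marker RNA, and the groups overlapped. Among yHSCs both were lowest in replicate 1, the yHSC library with the most neutrophil marker RNA. *Ccr3* ranged from 0.2997 to 51.7 CPM, *Ackr1* from 1.60 to 43.0, *Cxcr1* from 0 to 3.18 and *Ackr2* from 0 to 0.984. The part of other cells in the receptor levels was not tested.

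Of 32 other chemokine ligands, 15 to 17 passed the filter in a comparison, and edgeR called 0 in each, with 2 to 4 at an unadjusted p under 0.05. The most abundant per length were the platelet chemokines *Pf4* and *Ppbp*. *Pf4* stood at 23.5, 19.9 and 25.4 CPM in yHSCs, at 36.6, 1143 and 1438 CPM in Selp-low paHSCs and at 78.2, 2179 and 2053 CPM in Selp-high paHSCs. It was higher in every paHSC library, with replicate 1 the lowest in both fractions, and its log2 fold change for Selp-high paHSCs over yHSCs was 5.94 (SE 1.14, edgeR adjusted p = 0.149). *Ppbp* stood at 6.19, 6.28 and 8.86 CPM in yHSCs, at 4.56, 44.1 and 25.4 CPM in Selp-low paHSCs and at 306, 1195 and 84.3 CPM in Selp-high paHSCs. Its libraries did not overlap between Selp-high paHSCs and either other group (log2 fold change over Selp-low paHSCs 4.42, SE 1.21, edgeR adjusted p = 0.338, and over yHSCs 6.21, SE 1.01, edgeR adjusted p = 0.0993). DESeq2 called *Ppbp* in both comparisons and *Pf4* in both comparisons with yHSCs.

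Of the following, *Cx3cl1* stood at 6.33 to 24.5 CPM in yHSCs, 1.78 to 6.14 in Selp-low paHSCs and 8.60 to 16.8 in Selp-high paHSCs. *Cxcl12*, the ligand that retains HSCs in the marrow, stood at 75.2, 10.9 and 12.4 CPM in yHSCs, 35.5, 2.77 and 0.674 CPM in Selp-low paHSCs and 7.08, 4.78 and 1.17 CPM in Selp-high paHSCs. DESeq2 called it as lower in Selp-high paHSCs over yHSCs, where its libraries did not overlap. *Ccl27a* lay between 5.51 and 12.6 CPM in all libraries, and *Xcl1* had 0 counts in all yHSC libraries and reached 10.8 CPM in Selp-low replicate 2. DESeq2 called *Xcl1* as higher in Selp-high paHSCs over yHSCs, where it stood at 0.310 to 1.16 CPM.

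Genes that are known to accompany chemokine induction did not share 1 direction. Of 26 early response and NF-kB target genes, edgeR called 0 in each comparison. Between the paHSC fractions 23 of 26 tested, for Selp-high over Selp-low, had a log2 fold change below 0 (median -0.90, all genes -0.11; 7 at an unadjusted p under 0.05, beside 12.5% of all genes), and for Selp-high paHSCs over yHSCs 22 of 25 did (median -0.79, all genes -0.03; 9 at an unadjusted p under 0.05, beside 7.59%). For Selp-low paHSCs over yHSCs it was 11 of 26 (median 0.05, all genes 0.08; 1 at an unadjusted p under 0.05, beside 11.3%). DESeq2 called 1, 2 and 0 of them, beside 2.21%, 2.99% and 2.89% of all genes. *Fos*, an immediate early transcription factor, ranged from 272 to 4024 CPM within Selp-low paHSCs alone, and *Dusp1* and *Zfp36* from 529 to 4125 and from 1339 to 3204 CPM there. Of 24 interferon-stimulated genes tested, 21 had a log2 fold change below 0 for Selp-low paHSCs over yHSCs (median -0.77) and 19 had 1 above 0 for Selp-high over Selp-low paHSCs (median 0.45). For Selp-high paHSCs over yHSCs 15 were below 0 (median -0.18; 3 at an unadjusted p under 0.05), and DESeq2 called 1. None was called by edgeR in any comparison (in the first 2 named, 6 had an unadjusted p under 0.05 in each), and in those DESeq2 called 2 and 0. Of 8 proteases that trim chemokines, edgeR called 0 in each comparison, with 0 to 3 at an unadjusted p under 0.05 and 0 to 3 called by DESeq2.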

How the data were processed

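Bulk RNA-seq of 9 libraries was analysed from the table of raw read counts that the authors deposited, without normalization and beside a gene length. Per the methods and the submitters' processing notes, reads were trimmed with fastp, aligned with HISAT2 2.2.1 and counted with featureCounts 2.0.6; mm39 is the build named, and no strand setting is stated. The table held 0 unused columns of per-sample values and the authors' counts were whole numbers. The 9 ligands, the gene lists and the tests were chosen with earlier results of these data known.

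Tests used edgeR 4.0.16 as the main tool, with DESeq2 1.42.0 and limma 3.58.1 as alternatives (R 4.3.3), and figures were drawn in Python with matplotlib. Each pair of groups was fitted alone over the whole table (TMM, filterByExpr, quasi-likelihood test with the legacy setting). FPKM came from CPM and the deposited gene length. Alternatives covered scaling, the filter, the test, the fit of all libraries, the fold minimum, a replicate block and left-out libraries. Residuals of libraries with equal numbers correlated at 0.178, 0.276 and 0.303 between the paHSC fractions, all above the 0.1 taken as pairing, and at -0.417 to 0.0917 with yHSCs. Selp-high replicate 1 and yHSC replicate 2, from donors of different ages, correlated at 0.449, so values of this size do not establish shared animals. The steps were tested on simulated data. Changed genes had to be recovered only where the spread between replicates was set low, so this gives no recovery rate for these libraries. Named genes were all ligands and their receptors (1 item is not reported here), the 6 other ligands highest in FPKM, up to 3 genes of another list highest in CPM, and per ligand the 3 genes with the most similar log2 CPM (prior count 2). The genes that DESeq2 alone called were named after their values were seen.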

Additional observations from a re-analysis of the deposited data

How the results depend on the processing

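From yHSCs to Selp-high paHSCs edgeR called 2 of the 9 ligands. The count was 4 with no filter on low counts, 5 with DESeq2, 0 in 1 fit of all 9 libraries, 0 with a replicate block (edgeR) and 4 with a replicate block in DESeq2, and it ranged from 0 to 2 as single libraries were left out. The numbers do not pair yHSCs with the paHSC fractions. From yHSCs to Selp-low paHSCs edgeR called 0 (unadjusted p under 0.05 for 3), against 2 with no filter, 3 with DESeq2, 2 with voom and 3 with a replicate block in DESeq2. Between the fractions the replicate block gave 0 in edgeR and 1 in DESeq2 and changed no other call of a ligand. In an alternative chosen after seeing the data, DESeq2 with each library left out, the counts were 0 to 1 between the fractions, 3 to 6 for Selp-high paHSCs over yHSCs and 0 to 5 for Selp-low paHSCs over yHSCs, in fits that called 0.442% to 8.58%, 1.74% to 4.71% and 0.648% to 9.14% of all genes. RLE scaling, upper-quartile scaling, a mean of at least 10 counts, the newer quasi-likelihood setting and no fold minimum kept all 3 edgeR counts within 1.5 times.

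Of 594 log2 fold changes of ligands under alternatives, 15 changed sign, none of them a call. *Ccl6* in Selp-low paHSCs over yHSCs became -0.23 with voom, and all others came from leaving out a library. Between the fractions the ranges were -1.03 to 0.47 (edgeR) and -1.06 to 0.47 (DESeq2) for *Ccl3*, -2.84 to 1.75 and -2.86 to 1.72 for *Ccl5*, and -1.0004 to 1.42 and -0.92 to 1.39 for *Cxcl2*, which was also reversed without Selp-low replicate 2 (-0.15 and -0.19). In Selp-low paHSCs over yHSCs they were -0.71 to 3.78 and -0.69 to 3.70 for *Ccl5*, -0.0710 to 0.75 and -0.0898 to 0.72 for *Ccl6*, and -0.86 to 0.13 and -0.92 to 0.0689 for *Cxcl16*. The cause was not tested. Over all genes tested edgeR called 33 for Selp-high paHSCs over yHSCs, against 605 with DESeq2, 275 with voom, 472 with no filter, 90 with the newer setting, 19 in 1 fit of all 9 libraries and 0 with the block. It called 0 for Selp-low paHSCs over yHSCs, against 519, 431 and 365 with the first 3 and 415 with a block in DESeq2, and 0 between the fractions, against 582 with DESeq2, 193 with no filter, 9 with the block in edgeR and 2134 with the block in DESeq2. The order of the 3 group means held for 9 of 9 ligands with RLE sizes and for 7 of 9 on raw totals, where *Ccl6* and *Cxcl10* changed. Leaving out a library kept 2 in an arm, whose spread the fit pools. An exact permutation test of 3 against 3 libraries cannot go below 0.1, and *Cxcl5* in yHSCs rests on 12 to 26 counts.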
